A study of Mus musculus with 16 samples.

Results

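The mouse microRNAs mmu-miR-338-3p, mmu-miR-345-5p and mmu-miR-139-5p, written below without the species prefix, were followed through 16 samples of liver and liver tumour. They are 3 of the 566 mouse microRNAs on the array and were picked by name, because earlier readings of these data had shown them lower in tumours and close to the limit of detection. The tumour-against-control values below therefore describe how they were picked and carry no test. On the arrays miR-338-3p and miR-139-5p had lower means in both kinds of tumour, as their choice implies. The values went against the description for miR-345-5p in Ha-ras-mutated tumours, where its mean signal was above that of the control livers.

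MicroRNAs are short RNAs cut from a hairpin precursor, and they guide the Argonaute silencing complex to messenger RNAs that pair with the seed, a short stretch near the 5′ end. Their targets are then repressed or degraded. In human liver cancer, miR-338-3p and miR-139-5p have both been described as restraining growth and invasion, and both are commonly lower there than in non-tumour liver. miR-345-5p has been described as restraining growth in several human cancers and is less well studied in liver. The genes of miR-338 and miR-139 sit inside the genes for the kinase Aatk and the phosphodiesterase Pde2a, while that of miR-345 stands alone.

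All samples came from male mice of the inbred strain C3H/HeJ, in a study that started liver tumours with 1 injection of the carcinogen diethylnitrosamine. There were 7 Ctnnb1-mutated tumours from mice given phenobarbital by mouth and 3 control livers from mice given phenobarbital, called phenobarbital controls here. The other arm had 3 tumours mutated in Ha-ras and, as its controls, 3 livers of mice that drank water without the drug. Those are called untreated controls for that reason only. Ctnnb1 encodes beta-catenin, the effector of Wnt signalling, Ha-ras encodes a small GTPase of growth factor signalling, and phenobarbital is a promoter of liver tumours. The sample labels give 27 weeks of treatment, whereas the design text gives 28 to 36 weeks of a 0.05% phenobarbital diet and the treatment protocol 28 days in drinking water. Carcinogen doses of 10 or 90 µg per g at 2 or 6 weeks of age are listed without saying which sample had which. Neither do the labels say which controls received the carcinogen, or whether each sample of a group was from its own animal, so p-values measure the spread between these samples only.

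The mature sequences, with the seed (bases 2 to 8) in capitals, show that the 3 microRNAs belong to different seed groups.
mmu-miR-338-3p: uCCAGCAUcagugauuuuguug
mmu-miR-345-5p: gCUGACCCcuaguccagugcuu
mmu-miR-139-5p: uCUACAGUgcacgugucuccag
The sequences are those of RefSeq on assembly GRCm38.p6, where each of the 3 names had a match. Of the 1679 mature mouse microRNAs in that table, no other carried any of these seeds, and each molecule is 22 bases long. A shared seed therefore ties no listed microRNA to them.

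Their hairpins differ in which arm holds the molecule on the array, and the mature sequence is in capitals below.
mir-338: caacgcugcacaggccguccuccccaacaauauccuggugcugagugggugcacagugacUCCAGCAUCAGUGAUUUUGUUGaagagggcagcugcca
mir-345: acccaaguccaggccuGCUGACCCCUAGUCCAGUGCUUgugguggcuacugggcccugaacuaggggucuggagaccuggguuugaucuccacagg
mir-139: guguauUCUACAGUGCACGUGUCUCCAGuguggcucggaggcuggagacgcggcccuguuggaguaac
In GRCm38.p6 the mature sequence of miR-338-3p lies at chr11:120014781-120014802 on the minus strand, on the 3′ arm and within the span of Aatk (chr11:120007311-120047183). The span of the microRNA gene Mir3065 overlaps this hairpin. The miR-345-5p sequence lies at chr12:108836989-108837010 on the plus strand, on the 5′ arm. It is in no protein-coding gene, and the boundary of the nearest one, the mitochondrial carrier gene Slc25a29, is 1113 bases away. The sequence of miR-139-5p lies at chr7:101475382-101475403 on the plus strand, on the 5′ arm and within Pde2a (chr7:101421691-101512829). The gene table used holds spans only, so exon or intron was not read from it.

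Each sample had 1 one-colour array, and a microRNA had several probes with several spots each. Between 83 and 117 mouse microRNAs were detected on an array, 11.7% to 16.5% of spots were well above background, and no spot was saturated. Signals are background-subtracted intensities divided by each array's 75th percentile over 117 probes detected on every array, times 1 common constant, and are called scaled signals. A probe was detected on an array where more than 0.5 of its spots were well above background, and a microRNA where any of its probes was. The lowest detected scaled signal on an array lay between 15.5 and 43.3, and the array's negative control probes averaged 3.03 to 8.33. Signals of different probes depend on the probe, so they are compared between samples and not between microRNAs. In whole-tissue RNA, fewer cells that make a microRNA and less of it in each cell cannot be told apart.

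The 3 microRNAs had 7 probes in all, and 1 probe of each was the brightest and carried most of the detections. miR-338-3p was detected in 4 of 7 Ctnnb1 tumours, 3 of 3 phenobarbital controls, 0 of 3 Ha-ras tumours and 3 of 3 untreated controls. For miR-345-5p the counts were 4 of 7 Ctnnb1 tumours, 3 of 3 phenobarbital controls, 3 of 3 Ha-ras tumours and 3 of 3 untreated controls. miR-139-5p was detected in 5 of 7 Ctnnb1 tumours, 3 of 3 phenobarbital controls, 2 of 3 Ha-ras tumours and 3 of 3 untreated controls. Every control liver thus gave a detected signal for each of the 3, and the missed arrays were all tumours. All 3 passed the filter of the tests, which asks for detection on every array of 1 group or more and kept 96 microRNAs. They passed it through the control groups, and miR-345-5p through the Ha-ras tumours as well. Among the 566 mouse microRNAs, 72 were detected on all arrays, 78 on some arrays, these 3 included, and 416 on none.

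miR-338-3p was lower in both kinds of tumour than in their controls. The Ha-ras tumours had the lowest group mean on the brightest probe, although their values overlapped those of the Ctnnb1 tumours. On its brightest probe, the 7 Ctnnb1 tumours ranged from 19.4 to 38.5 with a median of 27.0, against 48.2, 49.7 and 47.8 in the phenobarbital controls. The Ha-ras tumours had 14.0, 14.5 and 25.0, against 38.2, 56.6 and 61.4 in the untreated controls. All 7 Ctnnb1 tumours were below every phenobarbital control, and all 3 Ha-ras tumours were below every untreated control. Of all 96 microRNAs, 17.7% had every Ctnnb1 tumour below every phenobarbital control (1.04% had every one above) and 31.2% had every Ha-ras tumour below every untreated control (15.6% above). These shares give the background, and nothing is read from them because these contrasts chose the members.

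The means of this probe were 27.8 ± 7.38 in Ctnnb1 tumours (SD, n = 7) and 48.6 ± 0.994 in phenobarbital controls (n = 3), a geometric mean 1.80-fold lower in the tumours. Only 4 of the 7 Ctnnb1 tumours detected miR-338-3p, so this fold rests partly on signals near background. In Ha-ras tumours the mean was 17.8 ± 6.21 (n = 3), against 52.1 ± 12.3 in untreated controls (n = 3). Only 2 of 30 spots in the Ha-ras tumours were well above background, compared with 26 of 26 in the untreated controls. The Ha-ras value is thus a bound, taken from the lowest signal detectable on those arrays, and the tumours were at least 2.28-fold lower than the untreated controls.

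miR-139-5p had the same order of groups. Its brightest probe ranged from 18.9 to 54.9 with a median of 34.3 in the Ctnnb1 tumours, against 57.8, 57.0 and 67.5 in the phenobarbital controls. The Ha-ras tumours had 27.4, 24.7 and 33.2, against 61.3, 70.8 and 54.1 in the untreated controls. As for miR-338-3p, neither tumour group overlapped its own controls. Of all 96 microRNAs, 17.7% were separated in this way in the Ctnnb1 tumours and 31.2% in the Ha-ras tumours. The highest Ctnnb1 tumour, replicate 1 with 54.9, came within a few units of the lowest phenobarbital control. Means were 34.4 ± 12.1 in Ctnnb1 tumours (n = 7) and 60.8 ± 5.82 in phenobarbital controls (n = 3), a geometric mean 1.86-fold lower. They were 28.4 ± 4.33 in Ha-ras tumours and 62.1 ± 8.41 in untreated controls (n = 3 each), a geometric mean 2.19-fold lower. Only 5 of 7 Ctnnb1 and 2 of 3 Ha-ras tumours detected miR-139-5p, so both folds rest partly on signals near background.

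miR-345-5p was lower in the Ctnnb1 tumours only, and the Ha-ras tumours stood at the other end of its range. In the Ctnnb1 tumours its brightest probe ranged from 18.9 to 60.9 with a median of 32.6, against 50.8, 79.3 and 68.5 in the phenobarbital controls. The Ha-ras tumours had 110.2, 111.3 and 86.8, against 79.8, 89.2 and 63.8 in the untreated controls. Of the Ctnnb1 tumours, 6 of 7 were below every phenobarbital control, and replicate 1 with 60.9 lay inside the control range. Of the Ha-ras tumours, 2 of 3 were above every untreated control, so these groups overlapped. Means were 33.7 ± 13.4 in Ctnnb1 tumours (n = 7) and 66.2 ± 14.4 in phenobarbital controls (n = 3), a geometric mean 2.05-fold lower. They were 102.8 ± 13.9 in Ha-ras tumours and 77.6 ± 12.9 in untreated controls (n = 3 each), a geometric mean 1.33-fold higher. Only 4 of 7 Ctnnb1 tumours detected miR-345-5p, so the 2.05-fold value rests partly on signals near background.

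**Figure D1:**
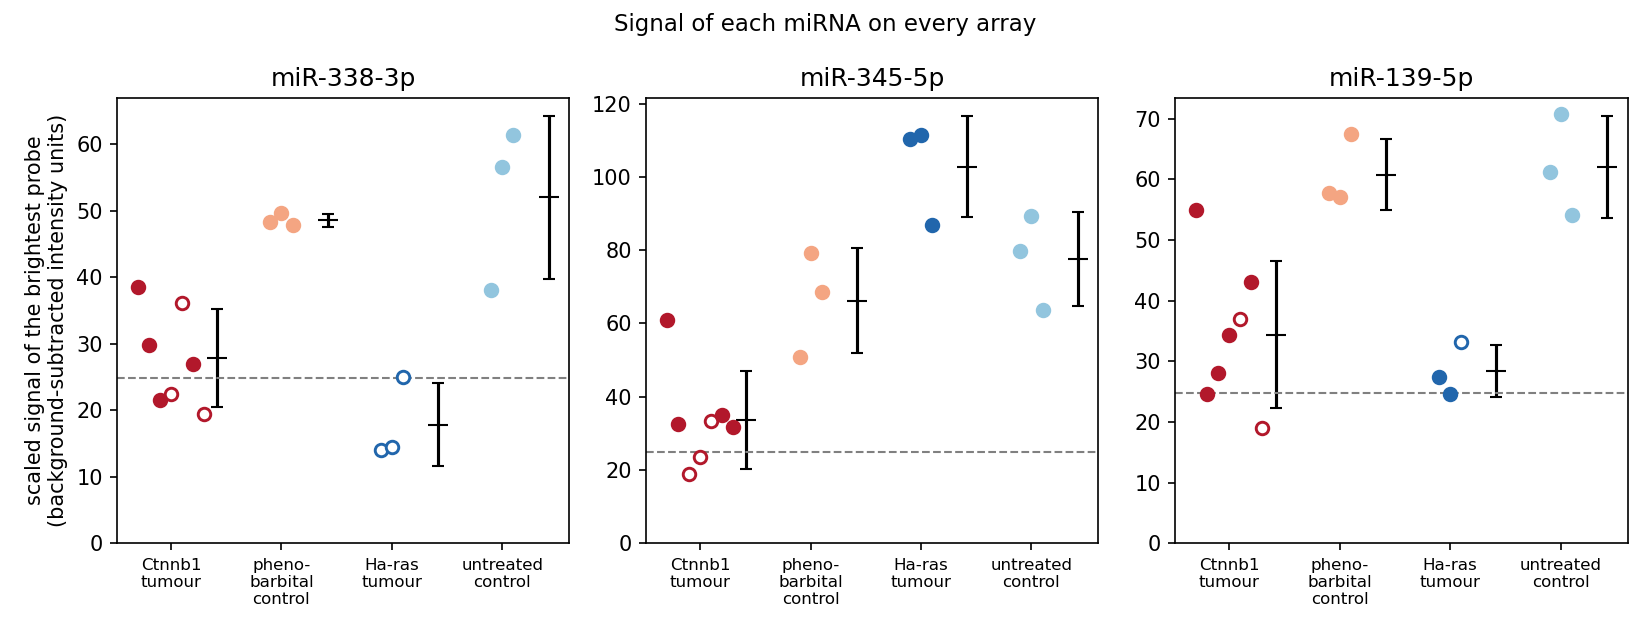
Scaled signal of the brightest probe of each microRNA on every array, by group, with filled points for detected and open points for not detected, and with bars for the group mean and SD. For miR-338-3p and miR-139-5p both tumour groups lie below their controls, whereas for miR-345-5p the Ha-ras tumours (86.8 to 111.3) lie above every Ctnnb1 tumour (18.9 to 60.9).

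The groups can be put in order on the brightest probe, as a description, since the steps between tumours and controls are those that chose the members. For miR-338-3p the untreated and phenobarbital controls were the highest pair, and their means differed by 0.07 on the log2 scale, within their pooled SD of 0.26. Ctnnb1 tumours came next, a step of 0.85 further down, and Ha-ras tumours last, where the probe was not detected and the size of the step is not given. For miR-139-5p the order was the same, with steps of 0.03, within the pooled SD of 0.17, then 0.89, and then 0.21, within the pooled SD of 0.40. For miR-345-5p the order was Ha-ras tumours, untreated controls, phenobarbital controls and Ctnnb1 tumours. Its steps were 0.41, then 0.24, within the pooled SD of 0.29, and then 1.03, and the values of neighbouring groups overlapped at each of them.

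The tests used a lower-resolution summary, in which signals under a floor of 24.8 scaled units were raised to it and the log2 values of a microRNA's probes were averaged. The floor was set from the lowest detected signals, as their median across arrays. Nearly all values of the dim probes sit at the floor, so this summary shrinks differences. On it, the Ctnnb1 tumours minus the phenobarbital controls were -0.37 for miR-338-3p (SE 0.10), -0.48 for miR-345-5p (SE 0.13) and -0.28 for miR-139-5p (SE 0.10). The Ha-ras tumours minus the untreated controls were -0.52 for miR-338-3p (SE 0.12), 0.21 for miR-345-5p (SE 0.15) and -0.41 for miR-139-5p (SE 0.11). Ctnnb1 tumours and phenobarbital controls had no slide in common, so slide and group cannot be told apart there. On the slide shared by 2 Ha-ras tumours and 1 untreated control, the differences were -0.31 for miR-338-3p, 0.16 for miR-345-5p and -0.37 for miR-139-5p. Over all 96 microRNAs the medians of these differences were -0.05 and -0.06, and 54 and 53 of the 96 were below 0. Among the 24 of these microRNAs that were detected on some arrays but not on all, 10 were below 0 in Ctnnb1 tumours minus phenobarbital controls and 9 in Ha-ras tumours minus untreated controls. The floor sets some of these differences to 0, and no test was made of these counts.

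**Figure D2:**
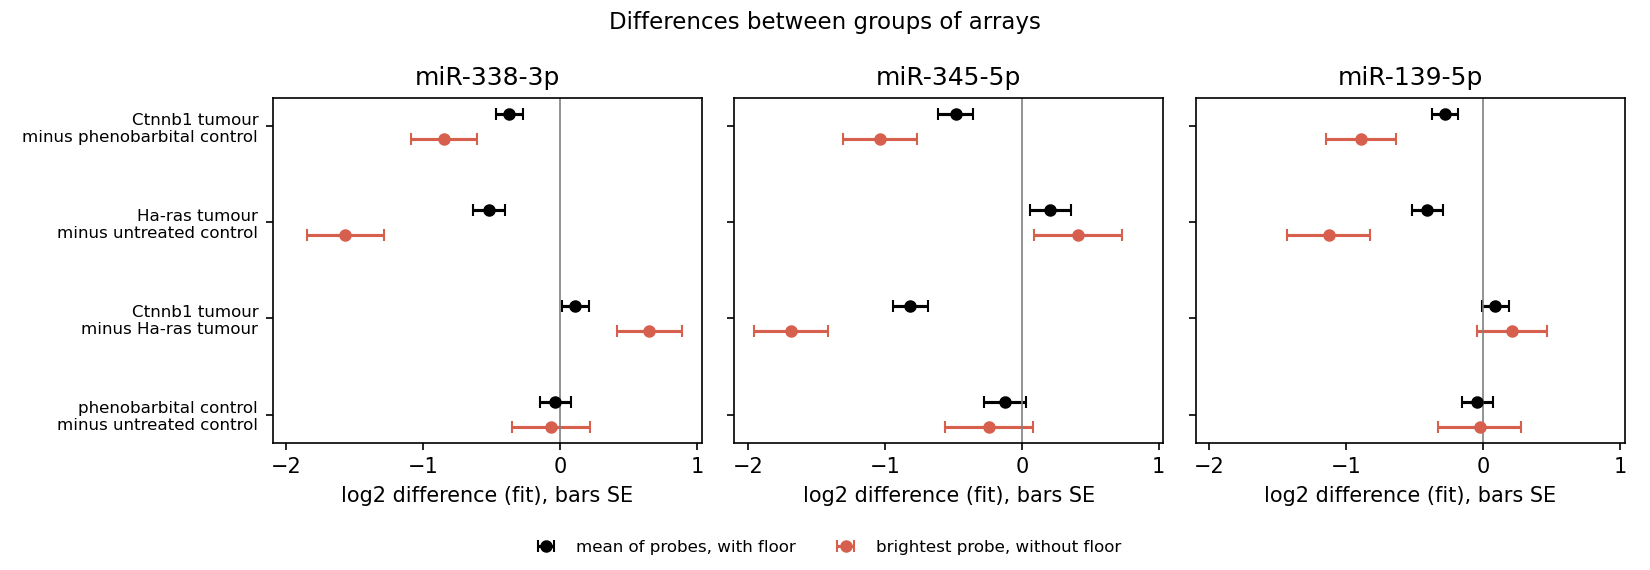
Differences between groups on the log2 scale for the 3 microRNAs, with bars for the SE of the fit. They are drawn as the floored mean of all probes and as the brightest probe with the floor lowered to 1 scaled unit, which raised no value of the 3. Both summaries put miR-345-5p lower in Ctnnb1 tumours than in Ha-ras tumours, by -0.81 and -1.68, and the phenobarbital minus untreated controls between -0.24 and -0.03 for all 3.

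The tumour genotypes were tested against each other, although the members were picked on tumours against controls and the same tumour arrays enter both contrasts. For miR-345-5p only the Ctnnb1 tumours had a mean below that of their controls, so its choice can rest only on their low values. Those values also lower this contrast, so the choice favours the miR-345-5p result and its p-values do not allow for that. miR-345-5p fell in Ctnnb1 tumours relative to Ha-ras tumours. All 7 Ctnnb1 tumours (18.9 to 60.9 on the brightest probe) were below all 3 Ha-ras tumours (86.8 to 111.3), a separation in this direction that 7.29% of the 96 microRNAs showed, while 14.6% showed the opposite one. The difference was -0.81 on the floored log2 scale (SE 0.13, 95% interval -1.09 to -0.54), with a limma adjusted p of 0.000492 over the 96 microRNAs. In all, 30.2% of the 96 microRNAs passed this test, with 13.5% of the 96 lower and 16.7% higher in Ctnnb1 tumours. On the brightest probe with the floor lowered to 1, the difference was -1.68 (SE 0.27, limma adjusted p = 0.000196), a geometric mean 3.21-fold lower. That analysis was chosen after the data were seen. Only 4 of the 7 Ctnnb1 tumours detected miR-345-5p, so this size rests partly on signals near background.

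The exact permutation test over the unlogged mean of the probes gave a difference of -42.5 scaled units for miR-345-5p, lower in Ctnnb1 tumours (two-sided p = 0.0167, the smallest that 7 against 3 samples allow). The array slides were unequally shared, since Ha-ras tumour replicate 1 shared slide 1 with all 7 Ctnnb1 tumours and the other Ha-ras tumours were on slide 2. Within slide 1 the difference was -0.86, from 7 arrays against 1, and the limma adjusted p of 0.0798 missed the threshold of 0.05. With slide as a fixed block the difference was the same -0.86, since it rests on that 1 Ha-ras array too, and the limma adjusted p was 0.0250. The lone Ha-ras array is assumed in both to vary like the other arrays. Among the cell type markers, miR-122 of hepatocytes was lower in Ctnnb1 tumours with a log2 difference of -0.59 (limma adjusted p = 0.0407). The hepatocyte markers miR-194 (-0.51, limma adjusted p = 0.109) and miR-192 (-0.0036, limma adjusted p = 0.987) were not called. miR-223 of leukocytes was higher with a difference of 0.82 (limma adjusted p = 0.0188), while miR-142-3p of the same list was not called (0.57, limma adjusted p = 0.209). The part of these markers in the miR-345-5p difference was not tested.

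For miR-338-3p and miR-139-5p the tumour genotypes did not pass the test on the floored summary. miR-338-3p had a difference of 0.11 (SE 0.10, 95% interval -0.10 to 0.32, limma adjusted p = 0.444), and miR-139-5p one of 0.09 (SE 0.10, 95% interval -0.12 to 0.29, limma adjusted p = 0.555). Most Ha-ras values of miR-338-3p were at the floor, where no lower value can be seen. On its brightest probe with the floor lowered to 1, miR-338-3p was higher in Ctnnb1 than in Ha-ras tumours by 0.65 (SE 0.24, limma adjusted p = 0.0459), with 4 of 7 Ctnnb1 tumours above every Ha-ras tumour. No Ha-ras array and only 4 of the 7 Ctnnb1 tumours detected it, so this size rests on signals near background and no fold is given. The exact permutation test over unlogged values gave 7.20 scaled units more in Ctnnb1 tumours (p = 0.0667). For miR-139-5p the brightest-probe difference was 0.21 (SE 0.25, limma adjusted p = 0.575), and Ctnnb1 tumours ranged on both sides of the Ha-ras tumours.

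**Figure D3:**
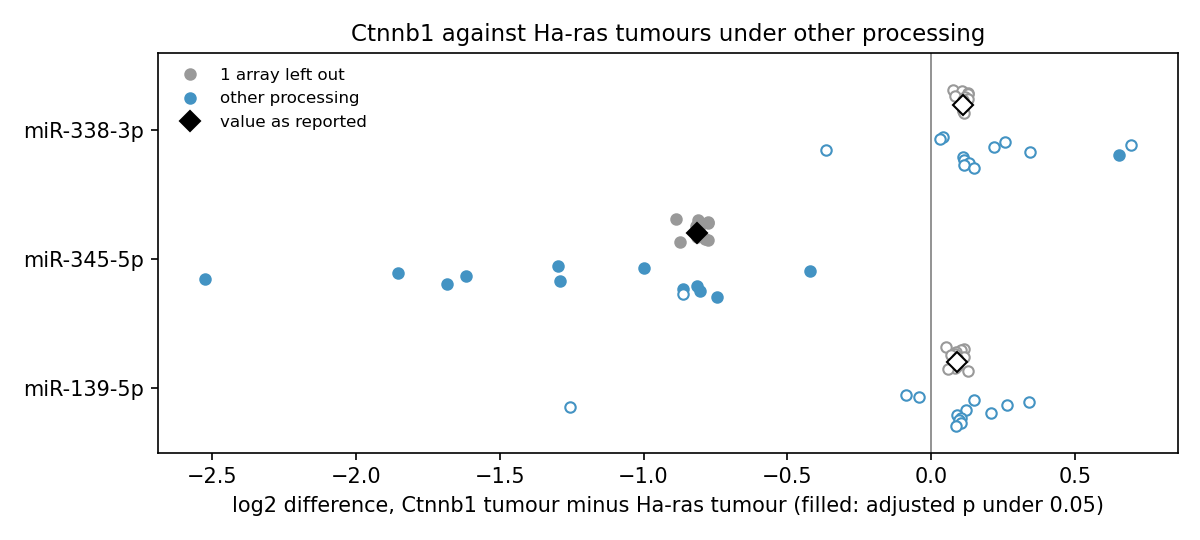
Ctnnb1 tumours minus Ha-ras tumours on the log2 scale for each microRNA, from the reported fit, with 1 array left out at a time and under other processing, with filled points where the adjusted p was under 0.05. miR-345-5p was below 0 under every setting drawn, from -2.53 to -0.42, whereas miR-338-3p and miR-139-5p had values on both sides of 0.

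The phenobarbital controls were compared with the untreated controls. These differences are between control livers only, but the tumours share in the spread behind the SEs, intervals and limma p-values. As carcinogen exposure of the control livers is unknown, the comparison does not isolate the drug. The 3 microRNAs had close values in both kinds of control. miR-338-3p had 48.2, 49.7 and 47.8 in phenobarbital controls, against 38.2, 56.6 and 61.4 in untreated controls, and the phenobarbital values lay inside the untreated range. miR-345-5p and miR-139-5p likewise overlapped between these groups, with the values given above. Among the 96 microRNAs, 7.29% had every phenobarbital control below every untreated control and 21.9% had every one above. The differences of phenobarbital minus untreated controls were -0.04 for miR-338-3p (SE 0.12, 95% interval -0.28 to 0.21, limma adjusted p = 0.928) and -0.12 for miR-345-5p (SE 0.15, 95% interval -0.45 to 0.21, limma adjusted p = 0.725). For miR-139-5p the difference was -0.04 (SE 0.11, 95% interval -0.29 to 0.20, limma adjusted p = 0.911).

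In that comparison limma called 0 of 96 microRNAs (0%), with 6 at an unadjusted p under 0.05. On the brightest probe with the floor lowered to 1, limma called 7 of 96, none of them a member. There the members' differences were -0.07 (limma adjusted p = 0.932), -0.24 (0.780) and -0.03 (0.968), in the order miR-338-3p, miR-345-5p and miR-139-5p. Exact permutation tests on unlogged values gave p = 0.6, 0.3 and 1 in the same order, where 3 against 3 samples cannot go below 0.1. On the slides that held both kinds of control, miR-338-3p differed by 0.18 on one and by -0.15 on the other, and neither passed the limma test.

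The dimmer probes are given for completeness, since few of their values stood clear of background and no order is read from them. The dim probe of miR-345-5p, detected on 2 Ha-ras arrays, averaged 7.26 ± 3.53 in Ctnnb1 tumours (SD, n = 7) and 11.4 ± 1.05 in phenobarbital controls (n = 3). It averaged 23.2 ± 2.30 in Ha-ras tumours and 15.9 ± 0.617 in untreated controls (n = 3 each). Its 2 detected values were both from Ha-ras tumours.

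For miR-338-3p the dim probe was detected on no array. It averaged 9.42 ± 3.50 in Ctnnb1 tumours and 14.0 ± 2.62 in phenobarbital controls, and 4.99 ± 1.55 in Ha-ras tumours and 17.3 ± 5.72 in untreated controls. The second probe of miR-139-5p, detected only in untreated control replicate 2, averaged 11.1 ± 5.39 in Ctnnb1 tumours and 20.8 ± 4.51 in phenobarbital controls. In Ha-ras tumours it averaged 9.28 ± 2.80, and in untreated controls 23.2 ± 6.64. Neither probe was detected in a tumour. The third probe of miR-139-5p gave no signal to read, with group means between -0.587 and 0.704.

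**Figure D4:**
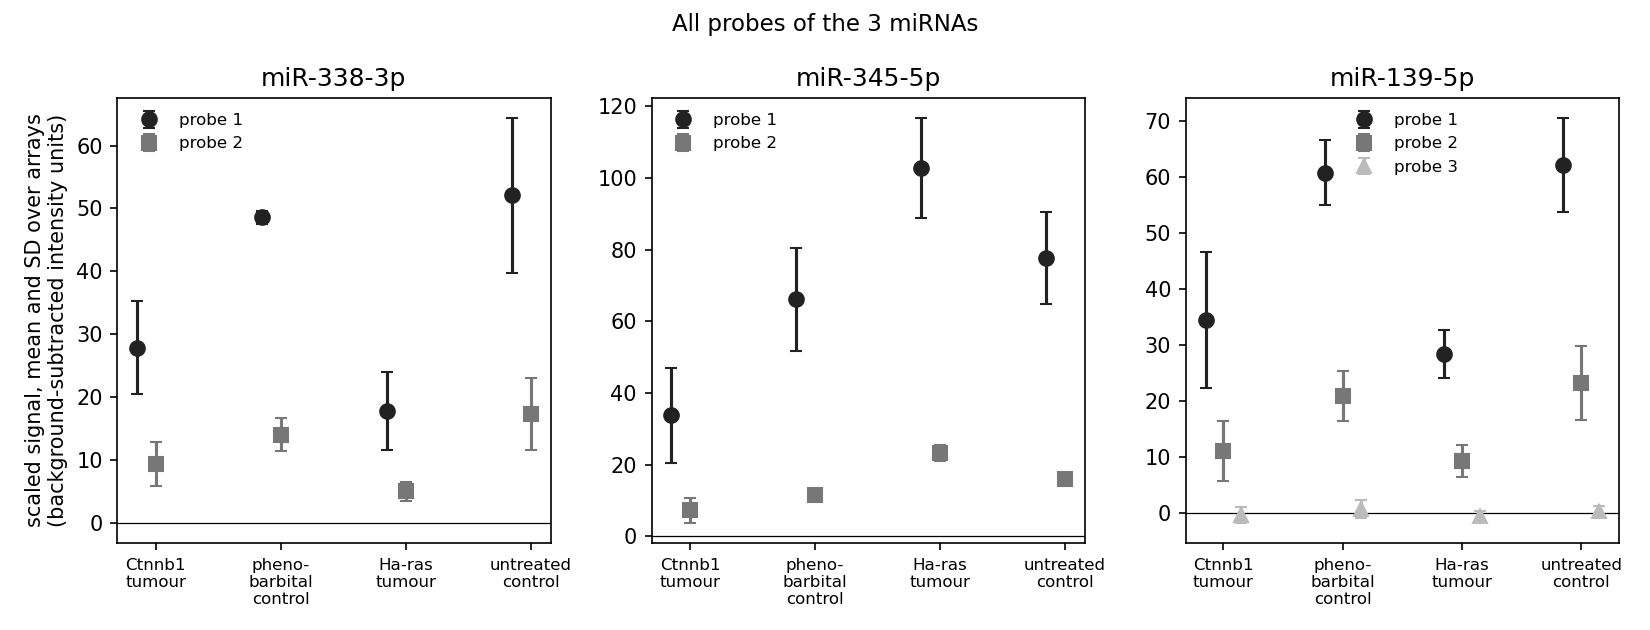
Mean scaled signal and SD of each of the 7 probes by group, for the 3 microRNAs. The floor used in the tests corresponds to 24.8 on the signal axis. Only the brightest probe of each microRNA has a mean above that value in the control groups. The dim probe of miR-345-5p is highest in the Ha-ras tumours (23.2).

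Across the 16 arrays, miR-338-3p and miR-139-5p moved alike and miR-345-5p apart from them. The log2 levels of miR-338-3p and miR-139-5p had a Pearson r of 0.863 and a Spearman rho of 0.805. miR-345-5p had an r of 0.308 with miR-338-3p (rho 0.236) and of 0.330 with miR-139-5p (rho 0.245). These arrays share groups, slides and the scaling, and the 3 microRNAs were picked for one pattern, so the coefficients are descriptions and have no p.

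Among the 95 other microRNAs that passed the filter, those closest to miR-338-3p were miR-125b-5p (r = 0.918, rho = 0.860), miR-199a-3p (r = 0.907, rho = 0.872) and miR-195 (r = 0.884, rho = 0.782). Those closest to miR-139-5p were miR-199a-3p (r = 0.902, rho = 0.861), miR-10a (r = 0.894, rho = 0.847) and miR-338-3p itself. miR-199a-3p, typical of mesenchymal cells including the stellate cells of the liver, stood near both. Its mean log2 levels were 5.58 in Ctnnb1 tumours and 6.75 in phenobarbital controls, and 5.03 in Ha-ras tumours and 6.54 in untreated controls. Those closest to miR-345-5p were miR-30c (r = 0.832, rho = 0.783), miR-30a (r = 0.773, rho = 0.668) and miR-31 (r = 0.769, rho = 0.943). Ctnnb1 minus Ha-ras tumours, a gap that itself feeds these correlations, were -0.59 for miR-30c, -0.77 for miR-30a and -1.28 for miR-31 on the log2 scale, given without a test. miR-31 was detected on 7 arrays only, and its mean log2 level was 4.66 in Ctnnb1 tumours and 5.94 in Ha-ras tumours.

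The tissue carried its defining marker, as miR-122, miR-192 and miR-194 of hepatocytes were detected throughout with summed scaled signals of 16250 to 32192 in Ctnnb1 tumours, 28466 to 32999 in phenobarbital controls, 27643 to 38275 in Ha-ras tumours and 32502 to 33391 in untreated controls. The list for mesenchymal and stellate cells was read as the sum of its members' brightest probes, undetected members included. Its members did not all move together. Ctnnb1 minus Ha-ras tumours were 0.56 for miR-199a-3p, already named above as close to both, and 0.0006 for miR-143. Phenobarbital minus untreated controls were 0.21 for miR-199a-3p and -0.37 for miR-143. Of its 5 members, miR-199a-3p, miR-199a-5p and miR-143 were detected, and miR-214 and miR-145 were detected on no array. Its summed signal ranged from 70.7 to 151 in Ctnnb1 tumours and 232 to 234 in phenobarbital controls, and from 57.2 to 70.8 in Ha-ras tumours and 143 to 294 in untreated controls. Both tumour groups lay below their controls without overlap, as for miR-338-3p and miR-139-5p. Of the 96 single microRNAs, 17.7% did so in Ctnnb1 tumours and 31.2% in Ha-ras tumours. The part of these cells in the members' differences was not tested. The summed signal reached its lowest value in Ha-ras tumours, where miR-345-5p was at its highest.

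The sums of the other lists are given in the same way, and their part in the members' differences was not tested. The endothelial list, miR-126-3p and miR-126-5p, both detected, summed to 675 to 968 in Ctnnb1 tumours and 1000 to 1026 in phenobarbital controls, and to 628 to 826 in Ha-ras tumours and 774 to 949 in untreated controls. Its Ctnnb1 tumours were below their controls, whereas the Ha-ras tumours overlapped theirs. The leukocyte list, with miR-150 and miR-155 of its 5 members detected nowhere, summed to 387 to 782 in Ctnnb1 tumours and 541 to 609 in phenobarbital controls, and to 227 to 670 in Ha-ras tumours and 333 to 689 in untreated controls. The erythroid list, with all 3 members detected, summed to 2487 to 5269 in Ctnnb1 tumours and 4188 to 5728 in phenobarbital controls, and to 1834 to 6723 in Ha-ras tumours and 1622 to 6266 in untreated controls. Both overlapped between tumours and controls in both arms. Of the list for neurons and endocrine cells, in which miR-338-3p is also well known, miR-124, miR-9 and miR-375 were detected on no array and miR-7a alone was detected, with sums of 19.8 to 57.8 in Ctnnb1 tumours and 33.7 to 54.4 in phenobarbital controls, and 16.1 to 29.2 in Ha-ras tumours and 39.5 to 41.9 in untreated controls. Its Ha-ras tumours alone were clear of their controls.

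The opposite strands of the 3 hairpins were rarely detected in the scanner signals. On 0 of 16 arrays was miR-338-5p or miR-345-3p detected, with brightest-probe signals of -3.67 to 1.37 and -7.82 to 6.42. miR-139-3p was detected on 1 array, untreated control replicate 3, at 91.6, with a median of 16.3 over all arrays. No comparison of strand use was therefore made.

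In the authors' deposited table, whose log2 values are on another scale with unstated normalisation, the tumour groups changed places for miR-338-3p and miR-139-5p. miR-345-5p averaged 4.05 ± 0.90 in Ctnnb1 tumours and 5.53 ± 0.18 in phenobarbital controls, and 6.57 ± 0.34 in Ha-ras tumours and 5.97 ± 0.43 in untreated controls in the authors' deposited table (SD, n = 7, 3, 3 and 3). That is the order seen in the scanner signals. The authors' deposited table gave miR-338-3p as 3.71 ± 0.94 in Ctnnb1 tumours and 5.31 ± 0.37 in phenobarbital controls, and as 4.07 ± 0.37 in Ha-ras tumours and 5.62 ± 0.27 in untreated controls. For miR-139-5p the authors' deposited table gave 2.94 ± 1.62 in Ctnnb1 tumours and 4.85 ± 0.29 in phenobarbital controls, and 4.19 ± 0.32 in Ha-ras tumours and 5.40 ± 0.19 in untreated controls. Tumour means were again below control means for both, but here the Ctnnb1 tumours were the lowest group, and their values in the authors' deposited table spread more widely than any other group's. Ctnnb1 tumour replicate 7 was the lowest for both, at 1.98 for miR-338-3p and -0.02 for miR-139-5p in the authors' deposited table. The opposite strand miR-139-3p varied widely in the authors' deposited table. It was -1, the lowest value there, in every phenobarbital control and 5.98 in untreated control replicate 3. In Ha-ras tumour replicates 1, 2 and 3 it was -1, 4.13 and 4.62.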

How the data were processed

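Per the file headers, Agilent Feature Extraction 10.7.3.1 (protocol miRNA_107_Sep09) gave the background-subtracted intensity of each spot, from 25 ng of labelled total RNA, per the labels' protocols. The other columns read were the deposited flags for spots well above background and outliers. The deposited table holds log2 values for 147 entries, per its values. R 2.14.1 is named in the submitters' processing notes, while the sources used here do not give how this table was normalised.

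Control and outlier spots were left out and spots of a probe averaged. Each array was divided by its 75th percentile over the 117 probes detected on all arrays (386 to 1248 before scaling), floored at 24.8, and taken to log2. The median spread between spots of a detected probe was 6.18% to 9.97%, which with the number of arrays limits the precision. The 96 microRNAs detected on every array of 1 group or more were fitted with limma 3.58.1 in R 4.3.3 (lmFit, eBayes, 4 group means, 16 arrays), with Benjamini-Hochberg adjustment over them and a threshold of 0.05. The code was tested on simulated data. Exact permutation tests were two-sided.

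The members and lists were chosen with earlier results of these data known. The named microRNAs were the members, their opposite strands, shared seeds, the 3 closest in correlation and the cell type lists. Neighbours in level were left out, because levels of different probes cannot be compared. Alternatives covered scaling, background, filter, floor, probe summary, slide, replicate number and each array in turn.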

Additional observations from a re-analysis of the deposited data

Results flagged for a closer look

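For miR-345-5p, Ctnnb1 tumour replicate 1 stood apart from the other Ctnnb1 tumours. Its brightest probe had 60.9 scaled units where the other 6 had 18.9 to 34.9, and its floored log2 level was 5.28. The gap to the next tumour was 0.620 of the group's range on the brightest probe, above Dixon's 95% critical value of 0.568 for 7 samples. Of 12 such checks on these microRNAs, made on the highest and the lowest values, 2 were past the critical value, both on this array and microRNA. A check can also be passed by chance. Both flags are the same observation on different scales. The dim probe was under the floor in every Ctnnb1 tumour, so the floored level there follows the brightest probe. Without this array the Ctnnb1 tumours minus the phenobarbital controls were -0.56 on the log2 scale.

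The tumour difference of miR-345-5p had opposite signs in the arms. It was -0.48 for Ctnnb1 tumours minus phenobarbital controls, with 7 of 7 tumours below the mean of their controls, and 0.21 for Ha-ras tumours minus untreated controls, with 3 of 3 above. The difference between the arms was not tested, because miR-345-5p was picked on these contrasts.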

How the results depend on the processing

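Only 1 call of a member was made, miR-345-5p lower in Ctnnb1 than in Ha-ras tumours, a direction that its choice favours. Log2 differences were -2.53 to -0.42 over 13 alternatives. The call missed the threshold within slide 1 (-0.86) and held under the others, of which the fixed slide block rests on the same single Ha-ras array. Leaving out each array gave -0.89 to -0.78 and kept the call. In this comparison miR-338-3p passed only on the brightest probe with the floor lowered to 1 (0.65, chosen after the data were seen) and turned to -0.37 in the deposited table. For miR-139-5p the difference turned to -0.088 with scaling over all mouse probes, -0.042 with quantile scaling and -1.26 in the deposited table. Leaving out arrays gave 0.08 to 0.13 for miR-338-3p and 0.05 to 0.13 for miR-139-5p. The median over the 96 microRNAs, reported as 0.08, was -0.32 under scaling over all mouse probes and 0.0088 under quantile scaling. The causes were not tested.

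The number of microRNAs called there, 29, was 19 with normexp background correction, 19 with only microRNAs detected on all arrays, 6 without the filter, 8 with slide as a fixed block, 5 within slide 1 and 5 to 29 when arrays were dropped (9 without Ha-ras tumour replicate 1 and 5 without replicate 2). The filter for detection on all arrays leaves no member, so it gives no value for them.

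For phenobarbital minus untreated controls, differences changed size and sign without being called. In the order miR-338-3p, miR-345-5p and miR-139-5p they were -0.43, -0.62 and -0.56 with the total gene signal and -0.31, -0.44 and -0.55 in the deposited table. With normexp miR-338-3p gave 0.054, miR-345-5p 0.0096 and miR-139-5p 0.040. miR-338-3p gave 0.014 with slide as a fixed block and 0.18 within slide 2. Leaving out arrays gave -0.14 to 0.032 for miR-338-3p, -0.19 to -0.031 for miR-345-5p and -0.092 to 0.025 for miR-139-5p. The count of 0 called was 5 with the total gene signal, 5 in the deposited table, 7 on the brightest probe with the floor lowered to 1, 1 without the filter, and 0 to 2 with arrays left out (2 without untreated control replicate 1 and 1 without replicate 3).

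Tumour minus control differences kept their sign under all alternatives run. Ctnnb1 tumours minus phenobarbital controls were -1.60 to -0.25 for miR-338-3p, -1.48 to -0.37 for miR-345-5p and -1.91 to -0.21 for miR-139-5p. Ha-ras tumours minus untreated controls were -2.001 to -0.31, 0.0083 to 0.70 and -1.79 to -0.20 in the same order.

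Same-numbered samples did not deviate together throughout. Correlations were -0.05, 0.24 and -0.18 between Ctnnb1 and Ha-ras tumours 1 to 3. Between Ctnnb1 tumours and phenobarbital controls 4 to 6 they were 0.24, -0.06 and -0.77. Between Ha-ras tumours and untreated controls 1 to 3 they were 0.58, -0.68 and -0.09. The numbers were not used as pairs in the main fit, and these few mixed values cannot show whether same-numbered samples shared an animal. With the replicate block the difference of Ctnnb1 and Ha-ras tumours was -0.74 for miR-345-5p (limma adjusted p = 0.00863), 0.15 for miR-338-3p and 0.08 for miR-139-5p, and 10 microRNAs were called. Phenobarbital and untreated controls share no replicate number. Signals close to background limit miR-338-3p in Ha-ras tumours to a bound.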
